A study of Mus musculus with 40 samples.

Results

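The primitive and visceral endoderm genes are a list of 39 genes that mark the extraembryonic endoderm of the early mouse embryo, taken by symbol from the 3 deposited count tables. All 39 symbols were present in each table, out of 55393 distinct symbols in all. Members were matched by symbol. The list holds 9 transcription factors (Gata4, Gata6, Sox17, Sox7, Foxa1, Foxa2, Foxa3, Hnf4a and Hhex) and 5 receptors or endocytic proteins (Pdgfra, Dab2, Cubn, Amn and Lrp2). It also holds 7 basement membrane proteins (Lama1, Lamb1, Lamc1, Col4a1, Col4a2, Nid2 and Sparc). A further 10 are secreted or transport proteins (Ttr, Afp, Apoa1, Apoa4, Apob, Apoe, Apom, Habp2, Serpina3m and Rbp4). The last are 4 signalling factors and co-regulators (Cer1, Ihh, Fst and Cited1) and 4 others (Srgn, Thbd, Plat and Aqp8).

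RNA was sequenced from E14tg2a, a mouse embryonic stem cell line kept in serum with leukaemia inhibitory factor, in 34 libraries. The study concerns the CtBP corepressors and Dux, a transcription factor gene of the 2-cell embryo. The genotype table has 2 libraries each of WT, DuxKO, Dppa2KO, CtbpDKO (both Ctbp genes targeted), Ctbp-Dux TKO (both Ctbp genes and Dux targeted) and a sixth group called DKO-Dppa2 here. The labels of the DKO-Dppa2 pair conflict, since its title and genotype give Dppa2 with Dux but its description gives Dppa2 with the double knockout. Ctbp1 had 4 and 0 counts there, so the pair is treated as Ctbp and Dppa2 targeted. Duxf3, the Dux gene of the tables, had 0 and 0 counts there but also 0 and 0 in Dppa2KO and 1 and 0 in WT, so whether the pair also lacks Dux cannot be told from them. In comparisons with DKO-Dppa2 a part of Dux loss therefore cannot be told apart. The Pramel7 table has 4 WT libraries and 2 each of DuxKO, P7KO (Pramel7 knockout), P7OE (Pramel7 overexpression) and DuxKO-P7OE. The time course samples CtbpDKO cells on days 0, 3, 9, 12 and 18, with 2 libraries a day and the word Dox in the titles but no dose or schedule. No label says how many clones stand behind a group, how Pramel7 was driven, or whether the libraries of a group came from separate cultures. P-values therefore measure only the spread between these libraries, which may be technical.

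Primitive endoderm separates from the inner cell mass before implantation and forms the visceral and parietal endoderm of the yolk sac. Gata6, Gata4, Sox17, Sox7, Foxa2 and Hnf4a are transcription factors of the programme, and Pdgfra marks its cells. The visceral endoderm takes up maternal protein through the receptors cubilin, amnionless and megalin with the adaptor Dab2, and secretes serum proteins such as alpha-fetoprotein, transthyretin and apolipoproteins. Both derivatives lay down laminins and type IV collagen. Embryonic stem cell cultures in serum are known to hold a minor fraction of cells that express some of these genes.

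Libraries of the genotype table held 19944644 to 36025046 counts, those of the time course 16674526 to 30169626, and those with the Pramel7 groups 10123058 to 30135341. Ctbp1 had 1911 and 2109 counts in WT and 1 and 2 in CtbpDKO. Ctbp2 counts of these groups are not given here, so that check covers Ctbp1 only. Duxf3 went from 40 and 24 in CtbpDKO to 0 and 0 in Ctbp-Dux TKO. Dppa2 kept 1208 and 1027 counts in Dppa2KO against 1707 and 1868 in WT, and no label gives the deleted part, so these counts do not test that label. P7OE libraries held 435 and 431 Pramel7 counts, against 2, 2, 4 and 2 in the 4 WT libraries. With so few counts in WT, Pramel7 counts cannot check the P7KO label. As a check of the stem cell label, 10 pluripotent cell markers summed to between 1889 and 3437 CPM (counts scaled to library size) in every library. In bulk RNA, fewer cells that express a gene and less RNA of it per cell cannot be told apart. The WT libraries of the Pramel7 table stood apart in pairs. Lamc1, a laminin chain, had 3642 and 3749 counts in replicates 3 and 4 but 9998 and 8776 in replicates 5 and 6. Results that rest on them are therefore also given with 1 pair at a time.

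Of the 39 genes, 35 passed the filter on low counts in the genotype table, 34 in the Pramel7 table and 33 in the time course. Afp, Apoa1, Apoa4 and Cer1 passed in no table, Ttr failed in the last 2 and Serpina3m failed in the time course. Some serum products of mature visceral endoderm were nearly absent, while Apoe, which encodes a lipid carrier, was at 324 ± 25.3 CPM in WT of the genotype table. Afp, which encodes alpha-fetoprotein, had 0 counts in every library except 1 of Ctbp-Dux TKO with 14 and those of P7OE with 6 and 1. Apoa4 and Cer1 never exceeded 2 counts in a library. Ttr, which encodes transthyretin, reached 28 and 29 counts in Ctbp-Dux TKO, with at most 7 in any other library of the genotype table. Levels below are CPM relative to the scaled library size, as means ± SD of 2 libraries, except for the 4 WT libraries of the Pramel7 table.

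**Figure D1:**
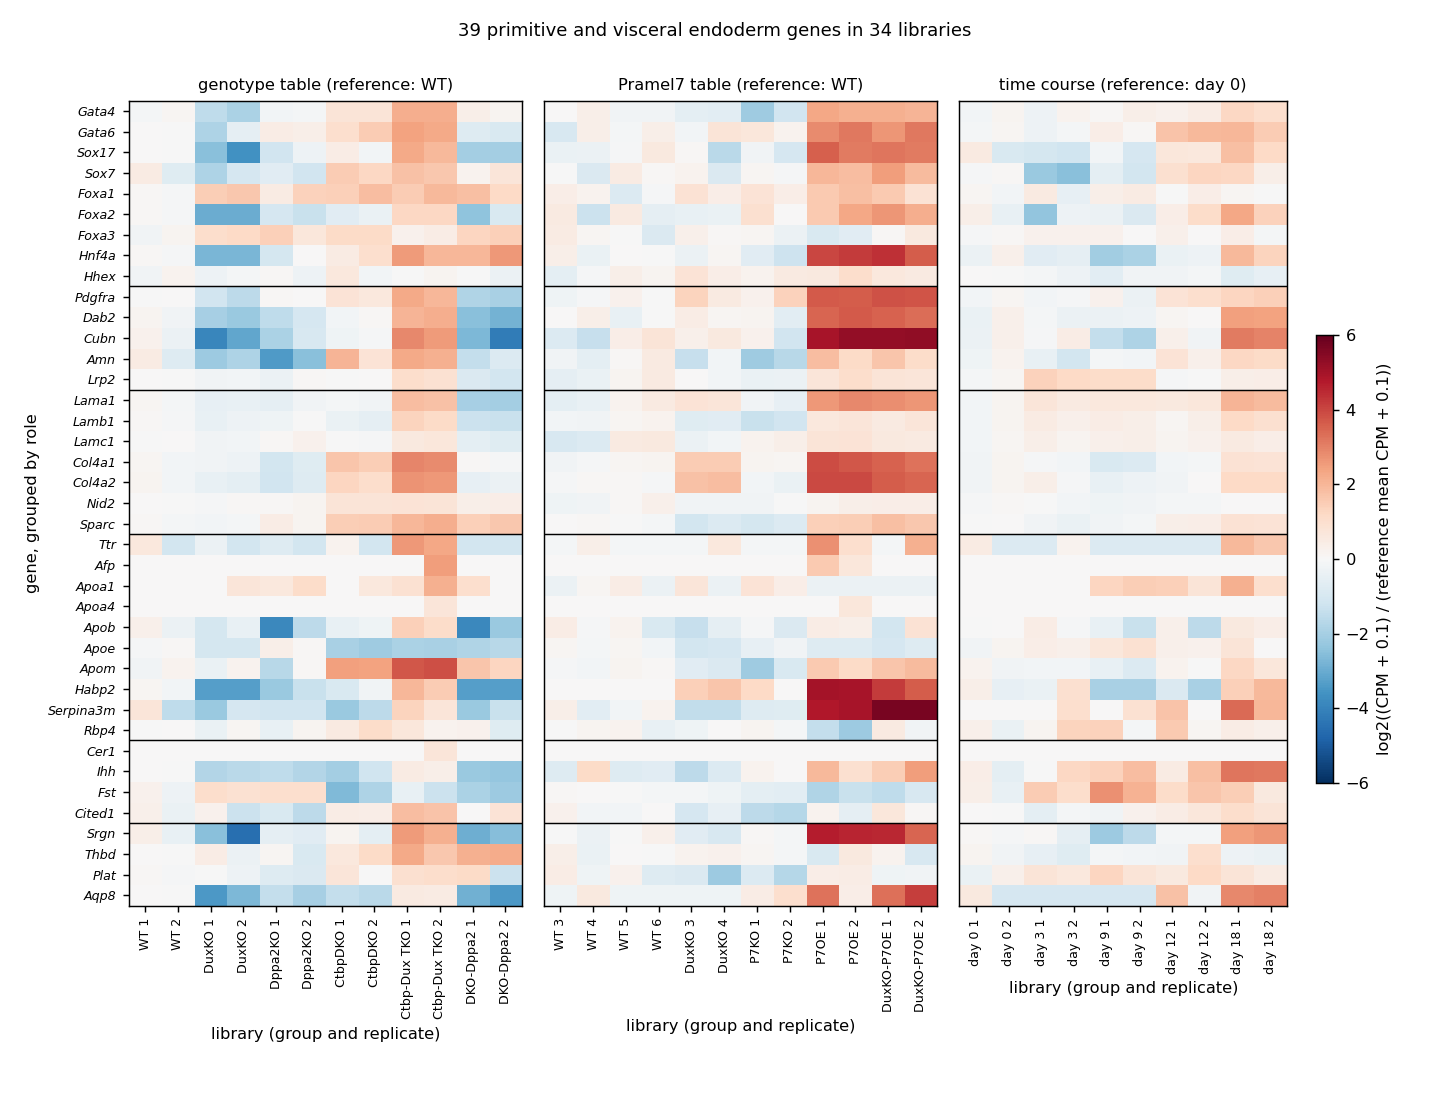
Levels of the 39 genes (rows, grouped by role) in the 34 libraries (columns, named by group and replicate). Colour is log2 of the level plus 0.1 CPM relative to the mean of WT, or of day 0 in the time course, plus 0.1 CPM. The columns with most red are the 2 Ctbp-Dux TKO libraries, the 4 libraries with Pramel7 overexpression and the 2 libraries of day 18.

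RefSeq promoter windows of build GRCm38.p6 were found for 27 of the 39 genes, which gave 37 windows of the 250 bases before a transcript start. They are shown because the genes below moved together in several comparisons and some encode factors with known motifs. All 4 windows of Hnf4a and Dab2, whose results recur below, are printed 5′ to 3′ along the gene. The windows of Cubn, Lamb1, Col4a1, Col4a2, Sparc and Srgn, whose results recur as well, hold none of the motifs marked here. Capitals mark the GATA motifs AGATAA and TGATAA and the E-box CACCTG, all searched on both strands (CAGGTG is CACCTG on the other strand). The first is the outer start of Hnf4a (chr2:163506607-163506856, plus strand), at the 5′ end of the gene at chr2:163506811-163572907. The next is an internal start of the same gene (chr2:163546905-163547154, plus strand), and the last 2 are the outer and an internal start of Dab2 (chr15:6299539-6299788 and chr15:6386498-6386747, plus strand), of which the internal one holds no match.
Hnf4a outer start: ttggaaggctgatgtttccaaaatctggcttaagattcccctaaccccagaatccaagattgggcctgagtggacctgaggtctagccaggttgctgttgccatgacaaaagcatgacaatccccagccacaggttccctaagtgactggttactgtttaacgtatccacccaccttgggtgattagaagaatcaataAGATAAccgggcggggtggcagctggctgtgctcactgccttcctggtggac
Hnf4a internal start: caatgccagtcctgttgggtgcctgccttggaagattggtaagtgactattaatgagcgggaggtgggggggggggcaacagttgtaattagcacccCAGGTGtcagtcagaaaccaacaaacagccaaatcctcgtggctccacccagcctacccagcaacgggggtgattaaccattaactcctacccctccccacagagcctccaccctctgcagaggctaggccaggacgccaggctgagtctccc
Dab2 outer start: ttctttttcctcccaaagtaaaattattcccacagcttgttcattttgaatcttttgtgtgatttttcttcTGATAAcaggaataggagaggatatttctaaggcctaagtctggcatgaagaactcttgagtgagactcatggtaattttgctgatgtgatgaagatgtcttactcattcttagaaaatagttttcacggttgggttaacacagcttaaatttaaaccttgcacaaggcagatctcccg
Dab2 internal start: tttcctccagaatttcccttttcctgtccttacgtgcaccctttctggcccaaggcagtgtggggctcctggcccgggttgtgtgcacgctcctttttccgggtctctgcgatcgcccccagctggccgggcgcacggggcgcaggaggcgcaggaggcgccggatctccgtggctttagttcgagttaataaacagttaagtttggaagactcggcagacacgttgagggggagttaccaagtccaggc
A GATA motif stood in 3 of the 37 windows (8.11%), those of Foxa2, Hnf4a and Dab2, against 16.6% of all 32851 windows of the same length. The E-box CACCTG stood in 7 windows (18.9%), those of Foxa1, Foxa3, Hnf4a, Apoa1, Apob, Apoe and Cer1, against 17.2% of all, and the HNF4 site CAAAGTCCA in 0 against 0.384%. These matches are letters in a window and not measured binding. Several genes contributed more than 1 window, and the starts of Col4a1 and Col4a2 used for the windows lie 21 bases apart on opposite strands, so the windows are not independent.

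Dux loss alone was compared with WT in the genotype table. The endoderm regulators Gata4, Sox17, Foxa2 and Hnf4a, the marker Pdgfra and the endocytic genes Dab2 and Cubn fell, as did Srgn, which encodes the proteoglycan serglycin. Of the 39 genes, 17 fell, 3 rose, 15 did not pass the test and 4 were not tested. A call means an adjusted p below 0.05 (edgeR quasi-likelihood test, Benjamini-Hochberg over all genes of the table). Genes named for the size of their change, at a mean of 50 counts or more, were chosen only where the groups were separate. Their separation is therefore no further result. Across all 21193 genes tested, 17.5% were called, 7.94% higher and 9.56% lower. The median log2 fold change was -0.77 for the 35 tested members and -0.01 for all genes.

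Sox17 had 83 and 84 counts in WT and 12 and 4 in DuxKO. The level fell from 2.76 ± 0.0327 to 0.271 ± 0.195 CPM, a log2 fold change of -3.34 ± 0.45 (± standard error, SE; adjusted p = 2.09e-04). Gata4 had 108 and 130 counts in WT and 38 and 30 in DuxKO (-1.78 ± 0.19, adjusted p = 3.75e-05). Both DuxKO libraries lay below both WT libraries for each gene. Hnf4a, a nuclear receptor that drives hepatic and visceral endoderm genes, had 18 and 16 counts in WT and 0 and 0 in DuxKO, at least 5.58-fold lower when 3 counts per library are taken as the floor. Habp2, which encodes a secreted serine protease, likewise had 29 and 24 against 0 and 0 counts (at least 8.70-fold lower). Foxa2, a forkhead factor of all endoderm, had 38 and 36 against 2 and 2 counts, a ratio of 18.2 (6.81 to 68.5) with its 95% counting interval. No DuxKO library of these 3 genes overlapped WT.

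Among the endocytic genes, Cubn, which encodes the receptor cubilin, had 598 and 399 counts in WT and 29 and 55 in DuxKO (-3.55 ± 0.40, adjusted p = 5.73e-05). Its adaptor Dab2 had 579 and 454 and 124 and 109 (-2.12 ± 0.19, adjusted p = 1.05e-05). Pdgfra, a growth factor receptor, had 94 and 98 and 40 and 30 (-1.43 ± 0.22, adjusted p = 5.61e-04). The groups did not overlap for any of the 3, while Lrp2, which encodes megalin, differed by -0.18 (adjusted p = 0.351). Srgn had 84 and 50 counts in WT and 9 and 0 in DuxKO (-3.84 ± 0.64, adjusted p = 0.00105).

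Of the 7 basement membrane genes 3 fell, and the median was -0.26. Lama1 changed by -0.48 ± 0.11 and Col4a2 by -0.52 ± 0.14. Of the secreted proteins, Apoe, a lipid carrier, fell from 324 ± 25.3 to 156 ± 0.0696 CPM (-1.06 ± 0.11, adjusted p = 2.55e-05). Foxa1, Foxa3 and Fst, which encodes the activin antagonist follistatin, rose. Fst had 141 and 97 counts in WT and 246 and 227 in DuxKO (1.01 ± 0.28). Gata6 fell from 65 and 63 counts to 15 and 43 (-1.12 ± 0.35, adjusted p = 0.0439). The remaining calls were lower values of Amn, Lamb1, Ihh and Aqp8, and Ttr was at 2 and 0 counts in DuxKO. Of the 20 calls, 11 were kept when each library was left out in turn, among them those of Gata4, Sox17, Hnf4a, Pdgfra, Dab2, Cubn, Apoe and Srgn. The count was 12 without WT replicate 1 or without either DuxKO library, and the calls of Gata6, Foxa1, Foxa3, Lama1, Col4a2 and Fst were among the 9 lost.

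Loss of both Ctbp genes was compared with WT next. Type IV collagen and Sparc, a matrix glycoprotein that binds it, rose together with Gata4, Foxa1 and Apom, while Apoe and Fst fell. Of the 39 genes, 12 rose, 5 fell and 18 did not pass the test. All genes tested were called in 26.1% of cases, 14.7% higher and 11.4% lower. The median log2 fold change of the tested members was 0.28, against 0.01 for all genes.

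Col4a1 had 1704 and 1447 counts in WT and 5494 and 5145 in CtbpDKO (1.58 ± 0.14, adjusted p = 2.11e-06). Col4a2, its partner chain, had 1327 and 1069 and 3221 and 2980 (1.19 ± 0.14, adjusted p = 3.73e-05). Sparc had 1356 and 1227 and 3945 and 4371 (1.5 ± 0.11, adjusted p = 5.87e-07). The CtbpDKO libraries lay above the WT libraries in each case, which was a condition for naming these genes. The laminin genes did not share this. Lama1 differed by -0.15 (adjusted p = 0.383) and Lamc1 by -0.04 (adjusted p = 0.783), and Lamb1 fell by 0.47 on the log2 scale. The 6 fibroblast markers summed to 11.3 and 11.6 CPM in CtbpDKO, with Col3a1, Dcn and Lum at or under 3 counts, and to 1.74 and 2.18 in WT. The 8 trophoblast markers summed to 27.0 and 27.4 CPM in CtbpDKO and 14.5 and 15.8 in WT. The part of either in these results was not tested.

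Gata4 had 221 and 241 counts in CtbpDKO, above the 108 and 130 of WT (0.78 ± 0.16, adjusted p = 0.00270). Gata6 had 65 and 63 in WT and 143 and 228 (1.34 ± 0.30, adjusted p = 0.00491), and Pdgfra 94 and 98 and 189 and 181 (0.77 ± 0.19). Sox17, Hnf4a, Dab2 and Cubn did not pass the test, with log2 fold changes of 0.17, 0.87, -0.04 and -0.15. Ttr was at 7 and 0 counts in WT and at 5 and 0 in CtbpDKO. Apoe had 9110 and 10473 counts in WT and 2783 and 2675 in CtbpDKO (-2.02 ± 0.11, adjusted p = 2.90e-08). Apom, another apolipoprotein, had 5 and 8 and 54 and 57 (2.89 ± 0.63), and Fst 141 and 97 and 18 and 36 (-2.33 ± 0.34). With each library left out in turn, 10 of the 17 calls were kept. The calls of Gata6 (without CtbpDKO replicate 2, adjusted p = 0.0579), Foxa3 (without WT replicate 1) and Pdgfra, Sox7, Amn, Ihh and Aqp8 (without WT replicate 2 or CtbpDKO replicate 1, among others) were lost.

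Adding Ctbp loss to Dux loss, and Dux loss to Ctbp loss, both came with higher levels across the list. Against DuxKO, 28 of the 39 genes rose in Ctbp-Dux TKO, including 6 of 9 transcription factors and all 5 receptors and endocytic proteins. All 7 basement membrane genes rose as well, while Foxa3, Apoe and Fst fell. Across all genes 41% were called, 21.4% higher and 19.6% lower. The median log2 fold change was 3.15 for the 35 tested members and 0.04 for all genes. Against CtbpDKO, 21 genes rose and 0 fell, where 8.15% of all genes were called, 3.6% higher and 4.54% lower. The medians of that comparison were 1.41 and 0.00. The 5 definitive endoderm markers, of which Sox17, Foxa2 and Cer1 are also members, summed to 15.6 and 17.9 CPM in Ctbp-Dux TKO and to 1.16 and 1.53 in DuxKO. Sox17 and Foxa2 rose among them, Cxcr4 was at -0.36 (adjusted p = 0.654), and Cer1 was at or under 3 counts in both groups.

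Sox17 had 322 and 326 counts in Ctbp-Dux TKO, a level of 12.5 ± 2.04 CPM. It exceeded both DuxKO (5.51 ± 0.42, adjusted p = 3.47e-07) and CtbpDKO (2.00 ± 0.31, adjusted p = 0.00169). Gata4 had 416 and 534 counts (18.1 ± 0.0675 CPM), 3.98 ± 0.18 against DuxKO and 1.42 ± 0.15 against CtbpDKO. Gata6 had 269 and 315 counts, 3.52 ± 0.33 against DuxKO (adjusted p = 2.57e-06) and 1.06 ± 0.28 against CtbpDKO (adjusted p = 0.0347). The Ctbp-Dux TKO libraries lay above all libraries of DuxKO, CtbpDKO and WT for the 3 genes. Foxa2 had 70 and 89 counts against 2 and 2 in DuxKO, a ratio of 45.0 (17.2 to 167). Hnf4a had 87 and 74 counts against 0 and 0 (at least 31.1-fold higher) and 27 and 44 in CtbpDKO (1.60 ± 0.43, adjusted p = 0.0408). Habp2 had 88 and 79 counts against 0 and 0 (at least 32.2-fold higher).

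The endocytic genes rose in the same comparisons. Cubn had 2825 and 2919 counts in Ctbp-Dux TKO, or 111 ± 16.5 CPM, against 1.41 ± 0.596 in DuxKO and 14.9 ± 1.24 in CtbpDKO. The log2 fold change was 6.29 ± 0.41 against DuxKO (adjusted p = 8.77e-08) and 2.90 ± 0.32 against CtbpDKO (adjusted p = 1.86e-04). Dab2 had 1618 and 2325 counts, 4.25 ± 0.20 and 2.16 ± 0.18 in the same comparisons. Amn, which anchors cubilin at the membrane, had 116 and 134 against 4 and 6 in DuxKO (4.80 ± 0.66) and differed from CtbpDKO by 0.66 (adjusted p = 0.451). Pdgfra had 358 and 386 counts (3.60 ± 0.21 against DuxKO and 1.40 ± 0.18 against CtbpDKO). Srgn, with 310 and 295 counts, rose by 6.23 ± 0.59 against DuxKO and 2.58 ± 0.41 against CtbpDKO. No library of the other 3 groups named here reached the Ctbp-Dux TKO libraries for Cubn, Dab2, Pdgfra or Srgn.

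Laminin and collagen genes rose together. Lama1, the laminin alpha chain of embryonic basement membranes, had 8005 and 9654 counts against 2038 and 2116 in DuxKO and 2975 and 3047 in CtbpDKO (2.27 ± 0.12 and 1.94 ± 0.11). Col4a1 had 9181 and 11022 against 1338 and 1251 and 5494 and 5145 (3.15 ± 0.14 and 1.31 ± 0.13). Lamb1, a laminin beta chain, rose by 1.61 ± 0.11 and 1.72 ± 0.11. Nid2, which encodes the linker nidogen, rose against DuxKO (0.80 ± 0.08) and differed from CtbpDKO by 0.05 (adjusted p = 0.758). The 6 fibroblast markers summed to 7.41 and 8.86 CPM in Ctbp-Dux TKO and to 1.06 and 1.5 in DuxKO, with Lum at or under 3 counts in both groups, Col3a1 in the former and Dcn in the latter. Their part was not tested. Among secreted proteins Apom rose to 95 and 131 counts (4.38 ± 0.62 against DuxKO). Ttr had 28 and 29 counts against 2 and 0, a ratio of 32.3 (8.54 to 273). Apoe, with 1975 and 2440 counts, differed from CtbpDKO by 0.08 (adjusted p = 0.719).

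**Figure D2:**
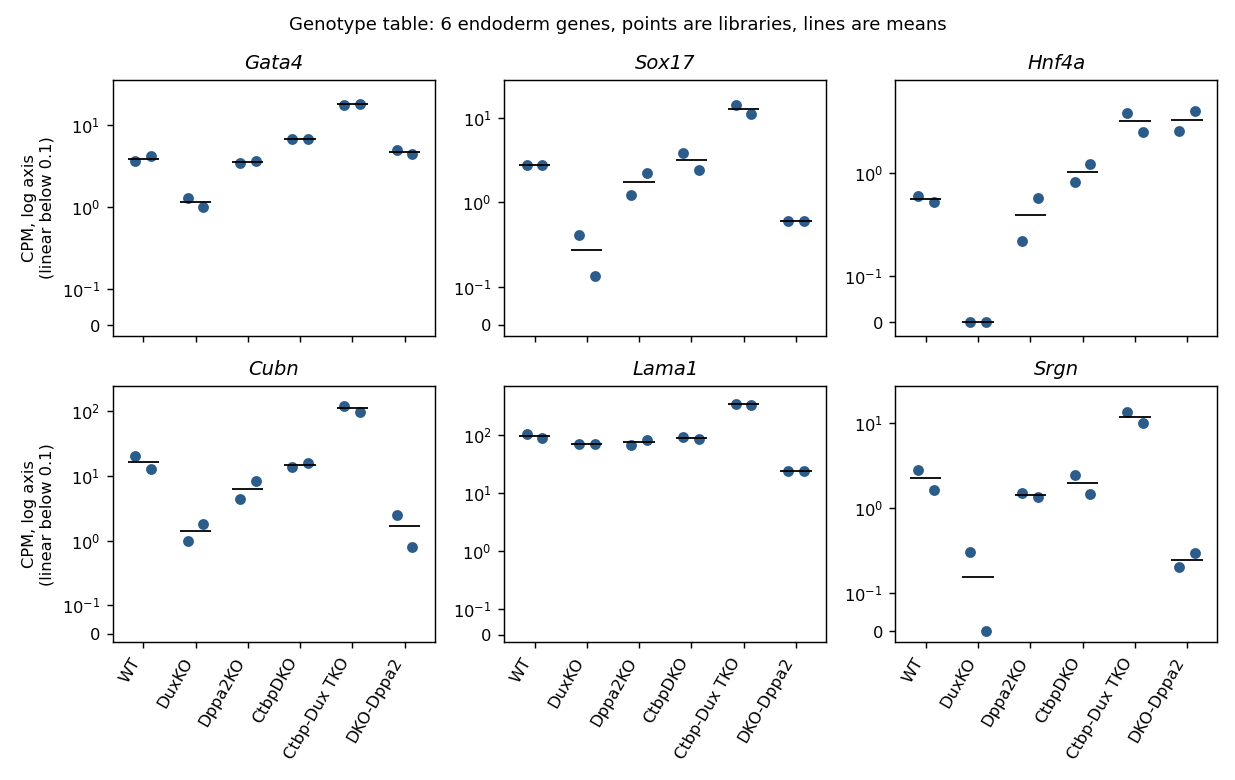
Levels in CPM (vertical axis, logarithmic above 0.1 CPM and linear below) of Gata4, Sox17, Hnf4a, Cubn, Lama1 and Srgn in the 6 groups of the genotype table. Points are single libraries and lines are group means. The Ctbp-Dux TKO libraries are the highest for Gata4, Sox17, Cubn, Lama1 and Srgn, and share the top with DKO-Dppa2 for Hnf4a.

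The effect of Ctbp loss differed with and without Dux. The difference between both log2 effects (an interaction, with 19.5% of all genes called, 9.82% higher and 9.64% lower) passed the test for 23 members, 22 of them with a higher value in cells without Dux. It was 6.44 ± 0.51 for Cubn, 4.29 ± 0.26 for Dab2, 5.34 ± 0.54 for Sox17 and 3.20 ± 0.24 for Gata4. Foxa3 had the opposite sign (-2.02 ± 0.41). For Cubn, Dab2, Sox17 and Gata4 the value combines a DuxKO group lower than WT with a triple knockout higher than CtbpDKO. Not every interaction call did so. Apoe did not pass against CtbpDKO, and Lrp2 did not pass in DuxKO against WT. The 3 comparisons share libraries. With each library left out in turn, 21 of the 23 interaction calls and 26 of the 31 calls against DuxKO were kept. The calls against DuxKO of Foxa3, Ttr, Apob, Serpina3m and Thbd were lost. Against CtbpDKO 12 of 21 were kept, and the count was 12 without CtbpDKO replicate 1 and 13 without Ctbp-Dux TKO replicate 1. Calls lost there were those of Gata6, Foxa2, Hnf4a, Sparc, Habp2, Serpina3m, Ihh, Fst and Aqp8.

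Dppa2 targeting was compared with WT and in cells without Ctbp. In Dppa2KO, Dab2, Cubn and type IV collagen were lower than in WT. Of the 39 genes 10 fell and 2 rose, where 16.4% of all genes were called, 7.67% higher and 8.69% lower. The median was -0.65 for the tested members and -0.02 for all genes. Dab2 had 212 and 301 counts in Dppa2KO against 579 and 454 in WT (-1.25 ± 0.18, adjusted p = 6.49e-04). Col4a1 had 873 and 1120 against 1704 and 1447 (-0.90 ± 0.14, adjusted p = 8.73e-04) and Cubn 158 and 296 against 598 and 399 (-1.38 ± 0.33, adjusted p = 0.0130). The Dppa2KO libraries lay below WT for these genes. Gata4, Gata6, Sox17, Hnf4a and Pdgfra did not pass the test (-0.15, 0.42, -0.69, -0.52 and 0.04). Ttr was at 1 and 0 counts in Dppa2KO and 0 and 0 in DKO-Dppa2. Of the 12 calls, those of Dab2, Col4a1 and Col4a2 were kept with each library left out in turn. The count of 12 became 4 without WT replicate 1, 5 without Dppa2KO replicate 1 and 7 without WT replicate 2.

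In DKO-Dppa2, the receptors, the endocytic genes and most basement membrane genes were lower than in CtbpDKO, while Hnf4a was higher. Against CtbpDKO 17 genes fell and 1 rose, where 15.4% of all genes were called, 5.75% higher and 9.67% lower. The median was -1.04 for the tested members, or -1.0 with genes that have a group at 0 set to their bound, and -0.03 for all genes. Lama1 had 485 and 555 counts against 2975 and 3047 in CtbpDKO (-1.88 ± 0.12, adjusted p = 8.17e-07). Dab2 had 58 and 55 against 507 and 639 (-2.68 ± 0.21, adjusted p = 5.94e-06) and Cubn 50 and 19 against 459 and 564 (-3.21 ± 0.41). Pdgfra had 17 and 18 against 189 and 181 (-2.74 ± 0.23, adjusted p = 1.24e-05). The groups were fully separate for each of these 4. The 6 fibroblast markers summed to 4.01 and 4.62 CPM in DKO-Dppa2, 11.3 and 11.6 in CtbpDKO and 0.709 and 0.936 in Dppa2KO, with Dcn and Lum at or under 3 counts in all 3 groups. The 8 trophoblast markers summed to 34.8 and 35.0 CPM in DKO-Dppa2, 27.0 and 27.4 in CtbpDKO and 9.61 and 10.1 in Dppa2KO. The part of either was not tested.

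Among the factors, Gata6 had 24 and 25 counts against 143 and 228 (-2.25 ± 0.34) and Sox17 12 and 14 against 125 and 87 (-2.38 ± 0.41). Hnf4a went the other way, with 51 and 94 counts against 27 and 44 in CtbpDKO (1.67 ± 0.44, adjusted p = 0.0225) and 8 and 20 in Dppa2KO (3.05 ± 0.48, adjusted p = 4.40e-04). The Hnf4a call against CtbpDKO was lost without CtbpDKO replicate 1 or 2 or DKO-Dppa2 replicate 2 (adjusted p up to 0.179), while that against Dppa2KO was kept. Gata4 fell by 0.51 against CtbpDKO, a call lost without any 1 of the 4 libraries and under 6 other settings. Against CtbpDKO 13 of 18 calls were kept with each library left out in turn, the others lost being Amn, Nid2 and Apob.

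Against Dppa2KO, 10 genes rose and 13 fell in DKO-Dppa2, where 30.4% of all genes were called, 15.2% higher and 15.2% lower, and the median was -0.77 (-0.35 with bounds). Sparc rose (2099 and 1702 to 2319 and 3141 counts, 1.23 ± 0.11) and so did Col4a1 (0.92 ± 0.14). Pdgfra (-2.02 ± 0.24), Dab2 (-1.46 ± 0.22), Gata6 (-1.33 ± 0.35) and Sox17 (-1.51 ± 0.43) fell, while Gata4 was at 0.41 (adjusted p = 0.0804). Lama1, Lamb1, Lamc1, Cubn, Lrp2, Apoe and Fst fell too. The interaction of Ctbp with Dppa2 targeting (8.23% of all genes called, 3.23% higher and 5% lower) passed for 8 members, all with a lower value in cells targeted for Dppa2. The count was 14 with no filter on low counts (13 lower and 1 higher) and 4 with a minimum log2 fold change of 1. It was -2.78 ± 0.30 for Pdgfra, -2.67 ± 0.46 for Gata6 and -1.50 ± 0.16 for Lama1. For Cubn it was -1.83 (adjusted p = 0.0525). Of the 23 calls against Dppa2KO 13 were kept with each library left out in turn, and of the 8 interaction calls 6, the lost ones being Lamb1 and Nid2. Calls against Dppa2KO of Gata6, Sox17, Col4a2 and Srgn were among those lost.

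Pramel7 encodes an adaptor of a ubiquitin ligase that is known to bind Uhrf1, a factor that maintains DNA methylation. Its overexpression came with higher levels of endoderm factors, the cubilin receptor genes, type IV collagen and Srgn, both in WT and in DuxKO cells. Against WT 23 of the 39 genes rose and 3 fell, where 19.9% of all genes were called, 11% higher and 8.9% lower. The median was 1.89 for the 34 tested members and -0.01 for all genes. In DuxKO cells 23 rose and 1 fell, where 21.4% of all genes were called, 11.6% higher and 9.83% lower, with medians of 2.05 and -0.03. In both comparisons 21 of the same genes rose, which is 91.3% of the 23 in each. For all genes 939 rose in both, which is 42.5% of 2209 and 40.1% of 2339.

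Hnf4a had 16, 8, 12 and 10 counts in the 4 WT libraries and 276 and 168 in P7OE (4.35 ± 0.30, adjusted p = 1.59e-06). In DuxKO cells it had 6 and 14 without and 126 and 70 with overexpression (4.40 ± 0.40, adjusted p = 1.30e-05). Sox17 had 14, 14, 18 and 26 in WT and 306 and 120 in P7OE (3.54 ± 0.39, adjusted p = 6.31e-05). All overexpressing libraries lay above the others. Gata6 had 10, 27, 20 and 24 counts in WT and 205 and 137 in P7OE (3.17 ± 0.36). Gata4 had 46, 56, 38 and 32 and 283 and 130 (2.30 ± 0.26). In DuxKO cells Sox17 rose by 4.07 ± 0.55, Gata6 by 2.61 ± 0.45 and Gata4 by 2.80 ± 0.35, where DuxKO-P7OE held 63 and 86 Gata6 counts and 85 and 78 Gata4 counts. Foxa3 alone among the 9 factors did not pass against WT, at -0.85 (adjusted p = 0.134). The Hhex call was lost without WT replicate 3 or 4 or either P7OE library (adjusted p up to 0.334), with WT replicates 5 and 6 only and with only the groups compared. That of Foxa1 was lost without P7OE replicate 2 (adjusted p = 0.0577).

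Cubn had 20, 12, 50 and 55 counts in WT and 1468 and 951 in P7OE, from 1.42 ± 0.956 (SD, n = 4) to 52.6 ± 7.43 CPM. The log2 fold change was 5.23 ± 0.42 (adjusted p = 5.54e-06), and in DuxKO cells it was 4.90 ± 0.54 (32 and 60 to 633 and 630 counts). Dab2 rose from 92, 109, 66 and 76 counts to 1253 and 753 (3.64 ± 0.21, adjusted p = 5.27e-07) and Pdgfra from 12, 13, 18 and 12 to 253 and 132 (3.86 ± 0.32). No WT library reached a P7OE library for the 3 genes. In DuxKO cells Dab2 rose by 3.18 ± 0.28 and Pdgfra by 2.94 ± 0.39. Srgn rose from 6, 4, 6 and 7 counts to 264 and 130 (5.11 ± 0.34, adjusted p = 1.16e-06).

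Col4a1 went from 357, 362, 434 and 378 counts in the WT libraries to 7327 and 3424 with overexpression, and in DuxKO cells from 794 and 1245 to 1968 and 1543. The change was 3.84 ± 0.13 in WT cells (adjusted p = 2.55e-09) and 1.89 ± 0.16 in DuxKO cells, which began higher. Lama1 had 536, 566, 921 and 1001 in WT and 5754 and 3803 in P7OE (2.75 ± 0.25). Lamc1 and Nid2 did not pass against WT (0.80 and 0.27). The 6 fibroblast markers summed to 1.95 and 2.42 CPM in P7OE, with Col3a1, Dcn and Lum at or under 3 counts, and to between 3.05 and 5.06 in WT. In DuxKO cells they summed to 3.66 and 4.49 with overexpression and 1.18 and 1.40 without. The 6 mesoderm markers summed to between 13.4 and 21.5 CPM in WT and to 5.48 and 6.52 in P7OE. The 5 definitive endoderm markers summed to between 1.97 and 3.62 CPM in WT and to 11.99 and 12.7 in P7OE, where Sox17 and Foxa2, both members, rose and Cxcr4 was at -0.23 (adjusted p = 0.802). The part of these in the results was not tested.

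Of the secreted proteins, Serpina3m, a serine protease inhibitor, had 7, 2, 4 and 5 counts in WT and 237 and 143 in P7OE (5.45 ± 0.30, adjusted p = 5.68e-07). In DuxKO cells it had 0 and 0 without and 156 and 150 with overexpression (at least 105-fold higher). Habp2 had 0, 0, 0 and 0 counts in WT and 95 and 49 in P7OE (at least 24.9-fold higher). Ttr was not tested in this table and had 0, 1, 0 and 0 counts in WT, against 20 and 2 with overexpression in WT cells and 0 and 4 in DuxKO cells. Apoe (-0.79 ± 0.14), Rbp4 and Fst (-1.58 ± 0.19) fell in P7OE. The Rbp4 call, from 9, 10, 11 and 5 counts to 2 and 0, was lost under DESeq2, with no filter on low counts, with WT replicates 5 and 6 only and without WT replicate 4 or 5 or either P7OE library. Fst, with 450, 417, 414 and 333 counts in WT and 142 and 105 in P7OE, also fell in DuxKO cells (-1.02 ± 0.22).

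**Figure D3:**
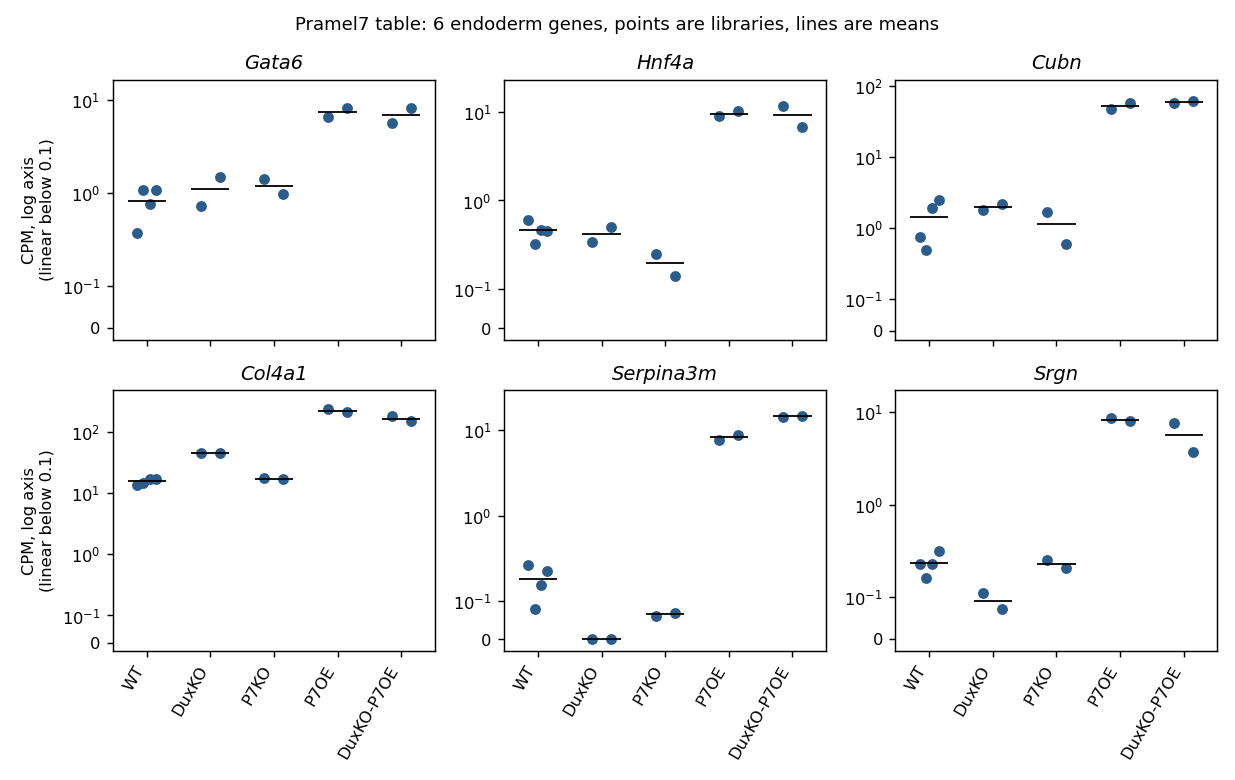
Levels in CPM (vertical axis, logarithmic above 0.1 CPM and linear below) of Gata6, Hnf4a, Cubn, Col4a1, Serpina3m and Srgn in the 5 groups of the Pramel7 table. Points are single libraries and lines are group means. The 4 libraries with Pramel7 overexpression lie above all others for the 6 genes, and for Col4a1 the DuxKO libraries lie between them and WT.

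DuxKO-P7OE and P7OE were compared directly. The edgeR quasi-likelihood test called 0 of the 39 genes, where 0.0298% of all genes were called. Under an unadjusted p of 0.05 there were 5 members (Foxa3, Col4a1, Col4a2, Serpina3m and Rbp4), and DESeq2 called 0. The log2 differences ran from -1.06 for Habp2 to 3.22 for Rbp4, with 0.18 for Cubn. For Gata4, Gata6, Sox17, Hnf4a, Pdgfra and Dab2 they were -0.16, -0.08, -0.21, -0.06, 0.16 and -0.15. Pramel7 itself stood at 435 and 431 counts in P7OE and at 537 and 588 in DuxKO-P7OE, or 20.1 ± 8.62 and 53.0 ± 5.25 CPM. The interaction of Pramel7 overexpression with Dux loss (7.5% of all genes called, 4.27% higher and 3.23% lower) passed for 6 members, higher for Sparc, Apoe and Serpina3m and lower for Col4a1, Col4a2 and Habp2. The calls of Apoe, Habp2 and Serpina3m were lost without at least 1 library, and the count was 3 without DuxKO replicate 4. With WT replicates 3 and 4 only it was 10, and with replicates 5 and 6 only 8, and the shares of all genes are not given there. The difference was -2.20 ± 0.18 for Col4a2 and 1.22 ± 0.19 for Sparc.

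With each library left out in turn, 17 of the 26 calls of P7OE against WT and 15 of the 24 in DuxKO cells were kept. Those of Foxa2, Amn, Lrp2, Sox7 and Aqp8 were lost in both, that of Apom in the first, and those of Nid2, Habp2, Ihh and Fst in the second. With WT replicates 3 and 4 only, 24 genes rose and 4 fell in P7OE, and with replicates 5 and 6 only, 20 rose and 2 fell. Shares of all genes are not given for these settings. In the genotype table, where no library is labelled as overexpressing it, CtbpDKO libraries held 67 and 79 Pramel7 counts and Ctbp-Dux TKO libraries 30 and 42, against 0 and 2 in WT and 0 and 0 in DuxKO.

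Pramel7 knockout lowered 6 of the 39 genes and raised 0, where 9.48% of all genes were called, 3.93% higher and 5.55% lower. The median was -0.22 (-0.27 with bounds) against 0.01 for all genes. Lamb1 had 1381 and 1438 counts in P7KO against 2559, 2384, 3108 and 2746 in WT (-1.23 ± 0.14, adjusted p = 2.02e-04). Sparc had 1021 and 1077 against 1794, 1750, 1689 and 1331 (-0.92 ± 0.13, adjusted p = 7.38e-04). Both P7KO libraries lay below every WT library for the 2 genes, which was a condition for naming them. Lower levels were not particular to P7KO. Lamb1 was at 109 ± 15.1 CPM in WT, 46.7 ± 4.71 in P7KO and 67.7 ± 2.13 in DuxKO. For Sparc the levels were 65.9 ± 4.20, 34.8 ± 3.82 and 33.9 ± 5.08. Gata4 had 10 and 21 against 46, 56, 38 and 32 (-1.73 ± 0.34), while Gata6, Sox17, Hnf4a, Pdgfra and Dab2 did not pass the test (0.54, -0.62, -1.21, 1.03 and -0.18). Amn, Fst and Cited1, a transcriptional co-regulator, also fell. With WT replicates 3 and 4 only, 7 genes fell and 1 rose, and with replicates 5 and 6 only 7 fell and the Fst call was lost. The shares of all genes under these settings are not given. Neural, mesoderm and fibroblast markers were lower too. The 10 pluripotent cell markers were higher, at 2852 and 2901 CPM in P7KO and between 1889 and 2492 in WT. Trophoblast and definitive endoderm markers overlapped WT. The 5 neural markers summed to 55.2 and 61.4 CPM in P7KO and between 108 and 132 in WT, the 6 mesoderm markers to 4.84 and 5.08 and between 13.4 and 21.5, and the 6 fibroblast markers to 0.661 and 1.01 and between 3.05 and 5.06. Hand2 and 5 fibroblast markers other than Thy1 were at or under 3 counts in P7KO. Their part was not tested. Without P7KO replicate 1 the count was 3 (2 lower and 1 higher), and the calls of Gata4, Amn, Fst and Cited1 were lost without at least 1 library.

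Dux loss in the Pramel7 table called fewer of the genes than in the genotype table, and the difference was not tested. Here 3 genes rose and 4 fell, where 16.7% of all genes were called, 7.76% higher and 8.91% lower, and the median was -0.24 (-0.21 with bounds) against -0.01 for all genes. Col4a1 rose from 357, 362, 434 and 378 counts to 794 and 1245 (1.52 ± 0.13, adjusted p = 7.83e-06) and Col4a2 by 1.81 ± 0.12, whereas they changed by -0.26 and -0.52 in the genotype table. Apoe fell in both (-1.06 ± 0.15 here and -1.06 ± 0.11 there), and so did Lamb1. Sparc fell here, from 65.9 ± 4.20 (SD, n = 4) to 33.9 ± 5.08 CPM. Cubn, Dab2, Sox17, Gata4 and Hnf4a did not pass here (0.50, 0.30, -0.73, -0.66 and -0.10). Pdgfra and Gata6 were at 1.08 and 0.48 without passing.

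The WT libraries themselves differed between the tables, which were normalized separately. Cubn was at 16.5 ± 4.99 CPM in WT of the genotype table and at 1.42 ± 0.956 (SD, n = 4) in WT of the Pramel7 table, and in DuxKO at 1.41 ± 0.596 and 1.97 ± 0.250. Dab2 was at 17.1 ± 3.27 and 3.46 ± 0.751 CPM in WT and at 3.92 ± 0.420 and 4.30 ± 0.723 in DuxKO. For Cubn and Dab2, WT differed more between the tables than DuxKO did, which was not tested and was not so for every gene. With WT replicates 3 and 4 only, 12 of the 39 genes were called in the Pramel7 table (8 higher and 4 lower), and with replicates 5 and 6 only, 10 (3 higher and 7 lower). Shares of all genes are not given for these settings. Without DuxKO replicate 4 the count was 4, and the calls of Col4a1, Col4a2, Sparc and Apoe were kept without any 1 library.

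The time course followed CtbpDKO cells in which Ctbp2 counts went from 1184 and 1328 at day 0 to 11119 and 11231 at day 3, 8466 and 6774 at day 9 and back to 866 and 1268 at day 12 and 926 and 1646 at day 18. Ctbp1 stayed at 4 counts or fewer. At day 3 against day 0, 2 rose and 1 fell, where 4.99% of all genes were called, 2.41% higher and 2.59% lower. Lrp2, which encodes the endocytic receptor megalin, rose from 1537 and 2001 counts to 4442 and 3776 (1.30 ± 0.11, adjusted p = 1.35e-05) and Lama1 rose from 624 and 855 to 1172 and 1002 (0.65 ± 0.12). Sox7 fell (20 and 25 to 3 and 2 counts, a ratio of 8.49 (3.38 to 27.4) with its 95% counting interval). Gata4, Gata6, Sox17, Hnf4a, Pdgfra and Dab2 did not pass (-0.02, -0.23, -1.21, -0.70, -0.13 and -0.25). The median was -0.10 (-0.02 with bounds), against 0.00 for all genes. The Lrp2 call was kept without any 1 library, and the count was 1 without day 3 replicate 1 and 5 with no filter on low counts.

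At day 9 Cubn, Srgn, Col4a1 and Hnf4a were lower than at day 0, and Lrp2, Lama1, Apoe and Fst were higher. This was 4 genes in each direction, where 7.34% of all genes were called, 3.6% higher and 3.73% lower, with a median of -0.16 against -0.01. Cubn had 38 and 23 counts against 61 and 107 at day 0 (-1.70 ± 0.30, adjusted p = 0.00346), and Col4a1 2071 and 1822 against 2471 and 3548 (-0.86 ± 0.12). Srgn had 6 and 9 against 29 and 29 (-2.17 ± 0.42). The libraries of both days were separate for the 3 genes. Hnf4a fell too (14 and 26 to 4 and 4 counts, -2.51 ± 0.59), while Gata4, Gata6, Sox17, Pdgfra and Dab2 did not pass (0.23, 0.27, -0.54, -0.01 and -0.33). From day 3 to day 9 Cubn (-1.90 ± 0.30), Col4a1 and Srgn fell and 0 genes rose, where 1.12% of all genes were called, 0.524% higher and 0.592% lower. For Gata4, Gata6, Sox17, Hnf4a, Pdgfra and Dab2, which did not pass between those days, the values were 0.25, 0.50, 0.67, -1.81, 0.12 and -0.07. With a minimum log2 fold change of 1 the count was 5 against day 0. Against day 3 it was 6 with no filter on low counts and 1 with only the groups compared. Both sets depended on single libraries. The 8 calls against day 0 became 4 without day 9 replicate 1, with Cubn, Lrp2 and Col4a1 kept throughout, and the 3 calls against day 3 became 0 without day 3 replicate 2 or day 9 replicate 2 and 1 without day 3 replicate 1 or day 9 replicate 1.

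When Ctbp2 was low again at day 12, Cubn rose from 38 and 23 counts to 84 and 96 (1.73 ± 0.30, adjusted p = 0.00528), against 61 and 107 at day 0. Gata6 rose from 52 and 34 to 86 and 161 (1.64 ± 0.29, adjusted p = 0.00590), above the 26 and 34 of day 0. Lrp2 fell back from 4847 and 4107 to 1401 and 2309 (-1.14 ± 0.11, adjusted p = 5.78e-05). In all 6 genes rose and 1 fell, where 3.84% of all genes were called, 1.87% higher and 1.97% lower, with a median of 0.43 (0.38 with bounds) against -0.01. The others were Sox7, Col4a1, Sparc and Srgn. Gata4, Sox17, Hnf4a, Pdgfra and Dab2 did not pass (0.13, 1.25, 2.13, 0.98 and 0.38). The count of 7 became 11 with no filter on low counts (9 higher and 2 lower), 3 without either day 9 library or day 12 replicate 1, and 2 without day 12 replicate 2, and the Lrp2 call was kept throughout.

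At day 18 Cubn, Dab2, Srgn and the laminin and collagen genes Lama1, Lamb1, Col4a1 and Col4a2 stood above every earlier day. Against day 12, 9 genes rose and 0 fell, where 0.82% of all genes were called, 0.64% higher and 0.18% lower. Against day 0, 10 rose and 0 fell, where 0.514% of all genes were called, 0.359% higher and 0.155% lower. With no filter on low counts 18 rose against day 0, with 0 lower, and the share of all genes is not given for that setting. The medians were 0.62 and 1.08, against 0.00 and -0.01 for all genes. Cubn had 606 and 935 counts at day 18, or 32.7 ± 2.27 CPM, against 4.09 ± 0.993 at day 12 and 3.91 ± 1.23 at day 0 (3.02 ± 0.25 and 3.05 ± 0.25, adjusted p = 8.53e-05 and 7.18e-05). Dab2 had 615 and 1028 counts against 120 and 179 and 94 and 177 (2.39 ± 0.20 and 2.45 ± 0.20). Srgn had 143 and 278 against 22 and 36 and 29 and 29 (2.78 ± 0.32 and 2.66 ± 0.32). Both day 18 libraries exceeded all 8 earlier ones for the 3 genes. Day 0 did not match CtbpDKO of the genotype table, which was normalized separately, for every gene. Cubn was at 14.9 ± 1.24 CPM there and 3.91 ± 1.23 at day 0, and Gata4 at 6.74 ± 0.00491 and 6.79 ± 1.01. This difference was not tested, and other genes are not set side by side here.

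Lama1 had 2514 and 3907 counts at day 18 against 624 and 855 at day 0 (1.97 ± 0.12, adjusted p = 3.09e-06). Col4a2 rose from 943 and 1368 to 2175 and 3701 (1.19 ± 0.15, adjusted p = 0.00196), and Lamb1, Col4a1 and Sparc rose by 1.08 ± 0.14, 0.84 ± 0.12 and 0.84 ± 0.10. Gata4 had 122 and 168 at day 0 and 287 and 407 at day 18 (1.13 ± 0.21, adjusted p = 0.0269), and Gata6 26 and 34 and 103 and 126 (1.82 ± 0.30, adjusted p = 0.0143). Hnf4a had 12 and 21 counts at day 12 and 69 and 76 at day 18 (2.15 ± 0.46, adjusted p = 0.0474) and did not pass against day 0 (1.77, adjusted p = 0.129). Sox17 was at 1.58 (adjusted p = 0.169) and did not pass. Against day 12, Gata4, Gata6, Sox17 and Pdgfra did not pass (0.77, -0.09, 0.87 and 0.44). Pdgfra did not pass against day 0 either, at 1.41 (adjusted p = 0.0509). Ttr and Serpina3m, not tested here, had 10 and 13 and 17 and 9 counts at day 18 and at most 4 in any earlier library.

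The 6 fibroblast markers summed to 18.9 and 20.5 CPM at day 18, 14.7 and 16.8 at day 12 and 9.96 and 11.8 at day 0, with Dcn and Lum at or under 3 counts on each of these days. The 5 definitive endoderm markers, of which 3 are members, summed to 5.92 and 9.39 CPM at day 18 and 1.79 and 3.14 at day 0, with 0 called. The part of these in the results was not tested. With each library left out in turn, 7 of the 10 calls against day 0 were kept, and those of Gata4, Gata6 and Col4a1 were lost. Of the 9 calls against day 12, 6 were kept, and those of Hnf4a, Lamb1 and Sparc were lost.

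**Figure D4:**
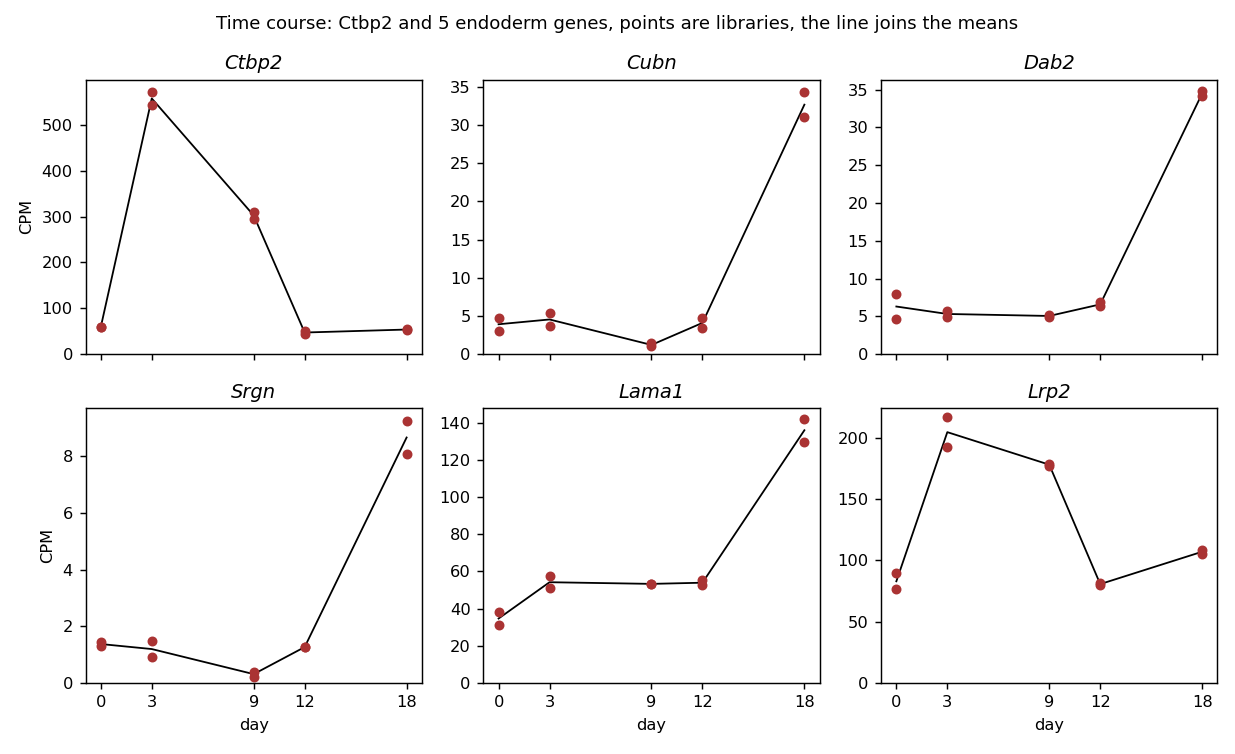
Levels in CPM (vertical axes, linear from 0) of Ctbp2, Cubn, Dab2, Srgn, Lama1 and Lrp2 against day. Points are single libraries and the line joins the means of 2 libraries. Cubn, Dab2, Srgn and Lama1 are highest at day 18, while Lrp2 is highest at days 3 and 9, when Ctbp2 is.

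The same genes recurred in comparisons that share no library, but the members were chosen with earlier results of these data known. Their recurrence is therefore no independent result. The 10 genes that rose at day 18 against day 0 were Gata4, Gata6, Dab2, Cubn, Lama1, Lamb1, Col4a1, Col4a2, Sparc and Srgn. All 10 also rose in Ctbp-Dux TKO against DuxKO, in P7OE against WT and in DuxKO-P7OE against DuxKO. They were 38.5% of the 26 members that rose in the triple knockout and 45.5% of the 22 that rose in P7OE and of the 22 in DuxKO-P7OE, among the 33 tested in every table. Of all genes tested in every table, 74 rose at day 18. Of these, 30 (40.5%) rose in the other 3 comparisons too, members included. Between Ctbp-Dux TKO against DuxKO and P7OE against WT, 21 members were shared, which is 77.8% of 27 and 91.3% of 23. For all genes 725 were shared, which is 17.3% of 4184 and 33.7% of 2153.

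**Figure D5:**
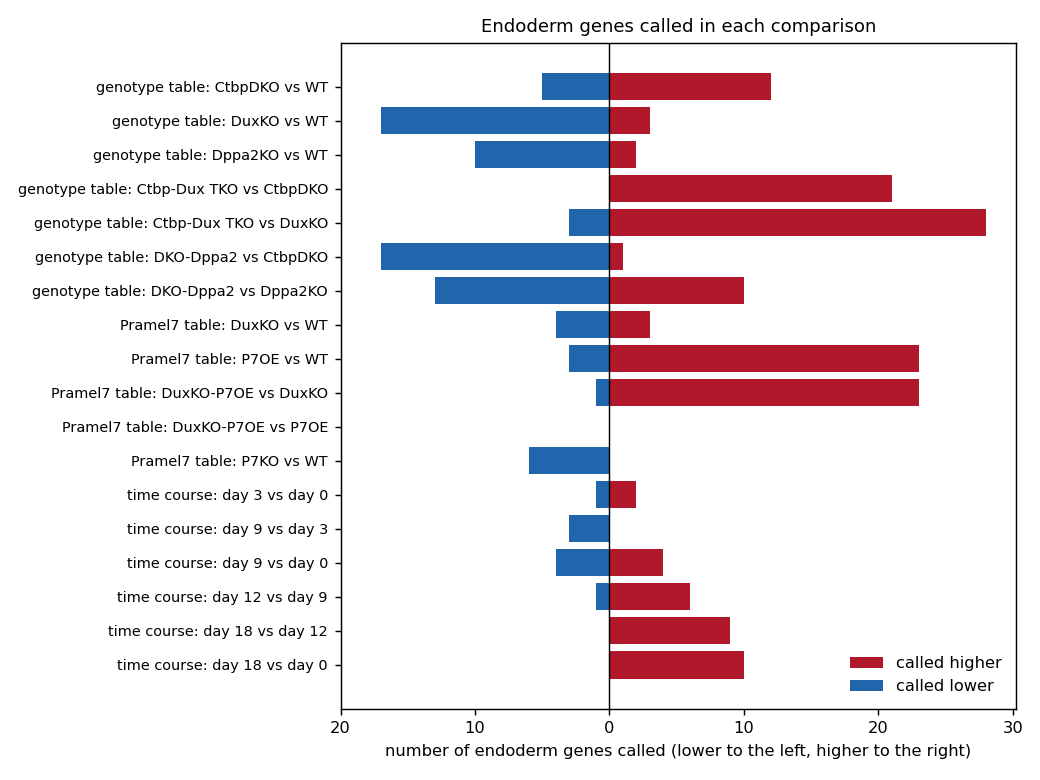
Number of the 39 genes called higher (red, to the right) or lower (blue, to the left) in each of 18 comparisons under an adjusted p of 0.05. The longest red bar is Ctbp-Dux TKO against DuxKO with 28 genes, and the longest blue bars are DuxKO against WT and DKO-Dppa2 against CtbpDKO with 17 each.

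Further extraembryonic endoderm genes were read from a list of 26 that holds none of the 39. In Ctbp-Dux TKO against DuxKO 15 rose and 1 fell of 20 tested (21.4% of all genes were higher and 19.6% lower), with a median of 1.86. Pth1r, a parathyroid hormone receptor of parietal endoderm, rose by 3.16 ± 0.32. In P7OE against WT 7 of 21 rose and 6 fell (11% and 8.9% of all genes). Pth1r (1.78 ± 0.27) rose, while the keratins Krt8 (-1.72 ± 0.32) and Krt18 (-1.41 ± 0.23) fell. The keratins rose in Ctbp-Dux TKO against DuxKO (1.93 ± 0.13 for Krt8). At day 18 against day 0 the median of the 20 tested was 0.64, and Pth1r was at 0.97 (adjusted p = 0.359).

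The FGF and ERK pathway favours primitive endoderm over epiblast in the embryo. Its 18 listed genes moved in both directions in Ctbp-Dux TKO against DuxKO, with 5 higher and 5 lower and a median of 0.00, where 41% of all genes were called. Fgf4, the ligand, rose (1.15 ± 0.09), and Dusp6, a target and inhibitor of ERK, fell (-0.61 ± 0.09). In P7OE against WT 2 rose and 3 fell, among them Fgf4 (-0.52 ± 0.16), where 19.9% of all genes were called. In CtbpDKO against WT, where 26.1% of all genes were called, 10 rose and 3 fell, with Etv4 at 1.02 ± 0.10 and Spry4 at 1.03 ± 0.10, both targets of the pathway.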

How the data were processed

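The authors deposited raw gene counts in 3 tables, which were analysed as deposited. Trim Galore, HISAT2 and featureCounts are named in the submitters' processing notes, with the build mm10 and no versions. RNA was made into libraries with a stranded kit, per the labels' protocols. The settings of the counting are not given in the sources used here. The 6 bisulfite libraries of the series were not analysed here. In R 4.3.3, each table was filtered with filterByExpr, scaled by TMM (trimmed mean of M values) and fitted with all its groups in 1 edgeR 4.0.16 quasi-likelihood model. P-values were adjusted by Benjamini-Hochberg over all genes of a table, which were 21193, 20161 and 20612. Log2 fold changes used a prior count of 0.125. The tables were normalized separately. A group at 0 counts was set to a floor of 3 counts per library, and a group of 1 to 3 counts gave a ratio with an exact 95% counting interval, which covers counting error only. The model was tested on simulated counts. It recovered 96, 90 and 97 of 100 genes changed 4-fold in CtbpDKO against WT (genotype table), DuxKO against WT (Pramel7 table) and day 3 against day 0. Of 100 genes changed 2-fold it recovered 73, 60 and 61. False calls among the other genes numbered 12, 13 and 14. Changed genes were drawn only from those above a mean of 1 CPM, so these rates do not cover lower genes. Alternatives were DESeq2 1.42.0, other scalings, no filter, a prior count of 2, a minimum log2 fold change of 1, only the groups compared, the replicate number as a block, 1 pair of WT libraries and each library left out. Gata4, Gata6, Sox17, Hnf4a, Pdgfra, Dab2, Afp and Ttr were named in each comparison. In each role, up to 3 called genes a direction with the largest change, separate groups and a mean of at least 50 counts were added. The members and lists were chosen with earlier results of these data known. Marker lists of pluripotent, trophoblast, mesoderm, definitive endoderm, neural and fibroblast cells were summed in CPM. Promoter windows came from RefSeq, build GRCm38.p6. Some genes of the lists and a promoter motif are not reported here.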

Additional observations from a re-analysis of the deposited data

Results flagged for a closer look

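The effect of Ctbp loss on 23 endoderm genes differed between cells with and without Dux, by an interaction term of the edgeR quasi-likelihood model. Of all genes, 19.5% were called for this interaction. The log2 difference (without Dux minus with Dux) was 3.20 for Gata4, 2.17 for Gata6, 5.34 for Sox17 and 5.99 for Foxa2. It was -2.02 for Foxa3. It was 2.83 for Pdgfra, 4.29 for Dab2, 6.44 for Cubn, 3.14 for Amn and 1.16 for Lrp2. Among basement membrane genes it was 2.42 for Lama1, 2.08 for Lamb1, 0.89 for Lamc1, 1.57 for Col4a1, 1.97 for Col4a2 and 0.71 for Sparc. It was 1.13 for Apoe, 7.11 for Serpina3m, 4.52 for Ihh, 6.42 for Srgn and 7.10 for Aqp8, where Serpina3m, Ihh and Aqp8 rest on few counts. Hnf4a (adjusted p = 0.000695) and Habp2 (adjusted p = 0.000273) had 0 counts in DuxKO, so no size is given.

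The effect of Ctbp loss differed with Dppa2 targeting for 8 genes, where 8.23% of all genes were called. The log2 difference (in Dppa2-targeted cells minus in others) was -2.67 for Gata6, -2.78 for Pdgfra, -1.42 for Dab2 and -0.87 for Lrp2. It was -1.50 for Lama1, -0.70 for Lamb1, -0.79 for Lamc1 and -0.51 for Nid2.

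The effect of Pramel7 overexpression differed with Dux loss for 6 genes, where 7.5% of all genes were called. The log2 difference (in DuxKO minus in WT cells) was -1.96 for Col4a1, -2.20 for Col4a2, 1.22 for Sparc and 0.97 for Apoe. Habp2 (adjusted p = 0.0289) and Serpina3m (adjusted p = 0.00733) had a group at 0 counts.

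Ihh stood out in 1 of the 4 WT libraries of the Pramel7 table, with 2, 14, 2 and 2 counts. The gap to the next library was 0.969 of the whole range in CPM, and chance alone takes about 1 group of 20 past the limit used.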

How the results depend on the processing

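No direction of a called gene reversed under the alternatives run. The share of all genes called is not given for the alternatives. Counts under them therefore cannot tell a change of the members from a change in the call rate of all genes. A minimum absolute log2 fold change of 1 left 4 genes in the Ctbp by Dppa2 interaction and 5 at day 9 against day 0. With no filter on low counts the Ctbp by Dppa2 interaction held 14 genes, and the time course 5 at day 3 and 18 at day 18 against day 0, 6 at day 9 against day 3 and 11 at day 12 against day 9. With WT replicates 3 and 4 only, DuxKO against WT held 12 genes in the Pramel7 table and the Pramel7 by Dux interaction 10. With only the groups compared, day 9 against day 3 held 1.

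With the replicate number as a block, DuxKO-P7OE against P7OE held 1 gene, and the block moved no other count by over 1.5 times (15 for CtbpDKO against WT, 29 for Ctbp-Dux TKO against DuxKO and 10 for day 18 against day 0). Deviations of same-numbered libraries correlated between -0.413 and 0.181 in the genotype table, and no label says that the numbers mark a shared culture.

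Leaving out 1 library gave ranges of called genes. In the genotype table they were 12 to 14 for CtbpDKO, 12 to 16 for DuxKO and 4 to 11 for Dppa2KO against WT. They were 12 to 15 for Ctbp-Dux TKO against CtbpDKO, 26 to 28 against DuxKO, 13 to 15 for DKO-Dppa2 against CtbpDKO and 16 to 19 against Dppa2KO. The Ctbp by Dux interaction ranged from 21 to 24 and that with Dppa2 from 6 to 12. In the Pramel7 table they were 4 to 8 for DuxKO, 19 to 29 for P7OE and 3 to 7 for P7KO against WT, 17 to 18 for DuxKO-P7OE against DuxKO and 3 to 7 for the interaction. In the time course they were 1 to 2 at day 3, 4 to 6 at day 9 and 7 to 11 at day 18 against day 0. They were 0 to 1 for day 9 against day 3, 2 to 3 for day 12 against day 9 and 6 to 7 for day 18 against day 12. Over all named genes and comparisons, leaving out a library ended the call in 302 of the recomputed values and gave one in 3. DESeq2 ended 13 calls and gave 2. Both tallies follow only genes called in the main fit and the genes named in every comparison. New calls of other members were not counted, so ended and gained calls cannot be set against each other. Fewer libraries give fewer degrees of freedom, and any other cause was not tested.

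With 2 libraries a group, changes of low genes such as Hnf4a, Foxa2 and Ttr rest on few counts.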
